A study of Mus musculus with 4 samples.

Results

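Transcripts of 49 genes of DNA replication and mitosis were examined in lymph node B cells of miR-146a transgenic (TG) and wild type (WT) mice. The genes were taken from a list of textbook cell cycle genes, 15 that act in DNA replication and 34 that act in mitosis, and were matched by symbol to Affymetrix probe sets annotated to a single gene. This gave 87 probe sets for 47 genes, all 15 of replication and 32 of mitosis, among 17097 genes represented on the array. Each gene was represented by the probe set with the highest mean signal over the 4 arrays. Ccnb1 and Nuf2 had no such probe set in the annotation and were not analysed here. The TG group held 2 mice transgenic for miR-146a, and the WT group held 2 wild type mice. All 4 were male Balb/C mice, an inbred strain, aged 6 to 8 weeks. Their B cells were purified from lymph nodes by magnetic removal of other cells, dead cells were removed, and 1 array was run per mouse. The promoter that drives the transgene was not stated in the labels read here, and the level of mature miR-146a was not analysed here. Values are the deposited log2 signals, so a difference of 1 is a 2-fold change.

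Replication begins when Cdc6 and Cdt1 load the ring-shaped helicase formed by the MCM proteins onto DNA, and GINS proteins help to switch it on. Mitosis is then driven by CDK1 with its cyclins and by the Aurora and Polo-like kinases, while the spindle checkpoint holds back the anaphase-promoting complex until every chromosome is attached. Replication genes are classically switched on by E2F factors in late G1, whereas mitotic genes peak later and are classically controlled through the cell cycle homology region (CHR) and CCAAT boxes of their promoters. Most lymph node B cells are resting, and germinal centre B cells and plasmablasts are those best known to divide.

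The microRNA that the transgene supplies is shown first, because the comparison turns on it, with its seed (bases 2 to 8) in capitals. The mature sequence is from RefSeq (GRCm38.p6, chr11:43374435-43374456, minus strand).
mmu-miR-146a-5p: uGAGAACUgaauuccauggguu
Promoters of 4 genes follow, for each class the 2 with the smallest p-value among the genes that had a promoter window. They show the promoter elements by which the classes differ. Each window runs from 250 bases before to 50 bases after the start of the gene (RefSeq, GRCm38.p6, written 5′ to 3′ on the gene's strand). Capitals mark matches on either strand to the CHR (TTTGAA or TTTAAA), the CCAAT box (CCAAT) and an E2F site (TTCCCGC or TTCGCGC or TTGCCGC or TTGGCGC). Overlapping matches of E2F letters merge into one run of capitals. The windows lie at chr4:118437294-118437593 (minus strand) for Cdc20, chr2:118597961-118598260 (plus strand) for Bub1b, chr1:128359656-128359955 (minus strand) for Mcm6 and chr7:102441445-102441744 (plus strand) for Rrm1.
Cdc20: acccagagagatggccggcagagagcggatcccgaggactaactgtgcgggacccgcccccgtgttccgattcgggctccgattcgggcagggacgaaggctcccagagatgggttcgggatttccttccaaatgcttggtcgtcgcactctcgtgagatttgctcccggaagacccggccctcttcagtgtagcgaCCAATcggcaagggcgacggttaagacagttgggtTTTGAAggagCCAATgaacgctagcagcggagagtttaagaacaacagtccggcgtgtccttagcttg
Bub1b: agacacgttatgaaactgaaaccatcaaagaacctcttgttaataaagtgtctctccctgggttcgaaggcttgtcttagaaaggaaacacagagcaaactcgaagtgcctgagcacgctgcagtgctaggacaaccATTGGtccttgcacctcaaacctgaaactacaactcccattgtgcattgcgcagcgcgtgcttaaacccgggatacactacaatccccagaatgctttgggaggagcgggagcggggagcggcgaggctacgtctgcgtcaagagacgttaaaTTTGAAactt
Mcm6: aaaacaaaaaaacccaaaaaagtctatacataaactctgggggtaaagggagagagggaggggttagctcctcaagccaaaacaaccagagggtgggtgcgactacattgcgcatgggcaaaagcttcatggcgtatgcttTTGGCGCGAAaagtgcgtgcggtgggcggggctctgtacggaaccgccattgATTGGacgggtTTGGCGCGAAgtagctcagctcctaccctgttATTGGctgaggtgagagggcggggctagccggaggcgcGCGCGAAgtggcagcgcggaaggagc
Rrm1: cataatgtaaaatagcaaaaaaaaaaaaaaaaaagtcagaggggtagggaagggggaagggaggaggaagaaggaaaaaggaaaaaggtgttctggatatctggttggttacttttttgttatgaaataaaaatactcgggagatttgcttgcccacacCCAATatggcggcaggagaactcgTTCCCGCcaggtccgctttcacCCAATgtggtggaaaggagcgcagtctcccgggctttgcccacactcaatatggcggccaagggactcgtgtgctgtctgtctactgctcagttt
The mitosis genes Cdc20 and Bub1b each held 1 CHR match and no E2F match in these windows, with 2 and 1 CCAAT matches. The replication genes Mcm6 and Rrm1 held 5 and 1 E2F matches, no CHR match and 2 CCAAT matches each.

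The same difference was seen across the classes. A window was given for 40 of the 47 genes, 28 of mitosis and 12 of replication, and a gene was counted as holding a motif if any of its windows did. The CHR letters occurred in 25 of 28 mitosis genes (89.3%) and in 3 of 12 replication genes (25%), against 8261 of all 27025 genes with a window (30.6%). The mitosis genes without them were Bub1, Nusap1 and Cks2, and the replication genes with them were Mcm2, Mcm5 and Rrm2. E2F letters showed the reverse pattern. They occurred in 4 of 28 mitosis genes (14.3%; Mki67, Cdk1, Ect2 and Hmmr) and in 8 of 12 replication genes (66.7%), against 10.9% of all genes. The CCAAT box was found in 23 of 28 mitosis genes (82.1%) and 8 of 12 replication genes (66.7%), and in 41.1% of all genes. These are letter matches and not measured binding. Among genes that lay lower in TG arrays without overlap 11 of 16 held the CHR letters, and among the other members 17 of 24 did. For E2F letters these shares were 7 of 16 and 5 of 24. The shares are not split by class. Replication genes, which held E2F letters more often, were also lower more often (53.3%, against 40.6% of mitosis genes).

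**Figure D1:**
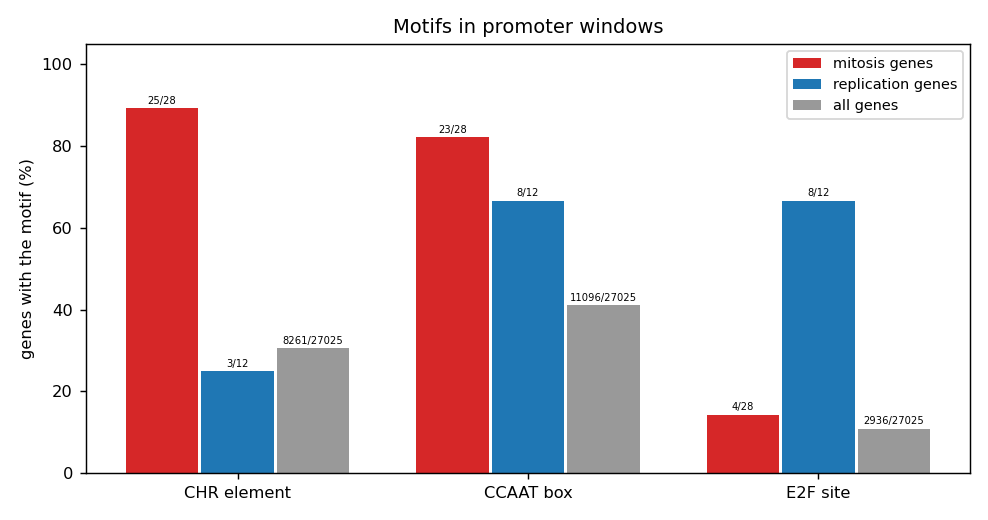
Percentage of genes whose promoter window (vertical axis) holds each motif on either strand, for mitosis genes, replication genes and all genes. Counts stand over the bars. The CHR letters were in 25 of 28 mitosis genes and 3 of 12 replication genes, and E2F letters in 4 of 28 and 8 of 12.

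The array of TG mouse 1 stood apart from the other 3. It had an upper quartile of signal of 6.13, against 6.51 for TG mouse 2 and 6.54 and 6.55 for the WT arrays. For beta-actin, a control of RNA integrity, the 3' probe set read 0.47 above the middle one on that array, against 0.15 for TG mouse 2 and 0.16 and 0.14 for the WT mice. It read 0.38 above the 5' one, against 0.16 for TG mouse 2 and 0.28 and 0.20 for the WT mice. The markers of the labelled cell type were present, with Cd79b at 9.95 and 10.45 in TG arrays and 11.19 and 11.22 in WT arrays. All 9 measured B cell markers were lower in both TG arrays than in both WT arrays (summed linear signal 6588 and 6842 in TG arrays, 12020 and 12640 in WT arrays). Of 9 T cell markers 7 were higher (12270 and 13910 in TG arrays, 10280 and 10400 in WT arrays). Among these Cd8a rose by 1.14, whereas Cd4 was lower without overlap (-0.79) and Cd2 overlapped. Of 6 NK cell markers 3 were higher, 2 overlapped and Gzma was lower (-0.96). Their summed signals were 2086 and 2463 in TG arrays and 2073 and 2065 in WT arrays. All 9 measured neutrophil markers were higher (1607 and 2247 in TG arrays, 356.3 and 354.8 in WT arrays). Of these 9 neutrophil genes, Elane (0.16) and Mpo (0.11) differed least, and the rest differed by 1.095 (Ltf) to 3.83 (Chil3). Elane was at 4.60 and 4.67 in TG arrays and at 4.53 and 4.42 in WT arrays. Mpo was at 3.60 and 3.70 in TG arrays and at 3.57 and 3.51 in WT arrays. Of 6 germinal centre markers 3 were lower and 2 higher (445.1 and 587 in TG arrays, 616.5 and 617.8 in WT arrays). Of 4 plasma cell markers 2 were lower, Jchain (-0.65) and Irf4 (-0.35), 1 was higher, Prdm1 (0.43), and Xbp1 overlapped (0.03). Their summed signals were 2389 and 2587 in TG arrays and 3072 and 3040 in WT arrays. Of 5 monocyte and macrophage markers 4 were higher (1598 and 1913 in TG arrays, 1204 and 1177 in WT arrays), and of 4 erythroid markers 3 were (4860 and 5697 in TG arrays, 4240 and 4190 in WT arrays). The part of this shift in the results that follow was not tested, and in bulk RNA fewer dividing cells and less RNA per dividing cell cannot be told apart.

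No replication or mitosis gene passed the test between TG and WT arrays. With limma, which shares the spread between mice across probe sets, the smallest adjusted p of the 47 genes was 0.171, and at an adjusted p of 0.05 it called 0.0117% of all genes lower and 0.0351% higher. These shares were 0.0166% and 0.0499% among brighter genes, meaning those whose mean signal exceeded the 40th percentile of probe sets. At an unadjusted p under 0.05, 7 of the 47 were lower and none higher, against 10.2% and 3.83% of all genes and 13.8% and 4.48% of the brighter ones. The 7 were Cdc20, Bub1b, Mcm6, Birc5, Gins2, Rrm1 and Cenpa. Without overlap between the groups, 21 members were lower and 2 higher in TG arrays. Of all genes 31.4% were lower and 17.7% higher in this sense, and of the brighter genes, to which 46 of the 47 members belong, 37.9% and 15.2%. The members' share lower was 44.7%. Over the members' own ranges of signal, weighted by the number of members in each, 37.7% of all genes were lower. The median log2 difference was -0.21 over the 47 members, -0.05 over all genes and -0.11 over the brighter genes.

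The direction rested largely on TG mouse 1. On that array 40 of 47 members lay below both WT arrays, against 61.8% of all genes and 71.7% of the brighter ones, and 4 lay above both, against 27.2% and 20%. The members' median was -0.37 relative to the WT mean. These values depended on the scaling of that array: after quantile normalization 29 members lay below both WT arrays (median -0.11), against 41.0% of all genes, and after cyclic loess 28 did (median -0.14), against 41.2%. On the array of TG mouse 2, 22 members lay below both WT arrays, against 37.7% of all genes and 41.2% of the brighter ones. A further 16 lay above both, against 43.0% and 43.3%, and the median was -0.03. Between the TG arrays, 43 of 47 members were lower in TG mouse 1, against 74.2% of all genes and 83.8% of the brighter genes. The median gap between the TG arrays was 0.35 for these genes, against 0.24 for all genes and 0.29 for the brighter ones. That between the WT arrays was 0.08, against 0.065 and 0.062.

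**Figure D2:**
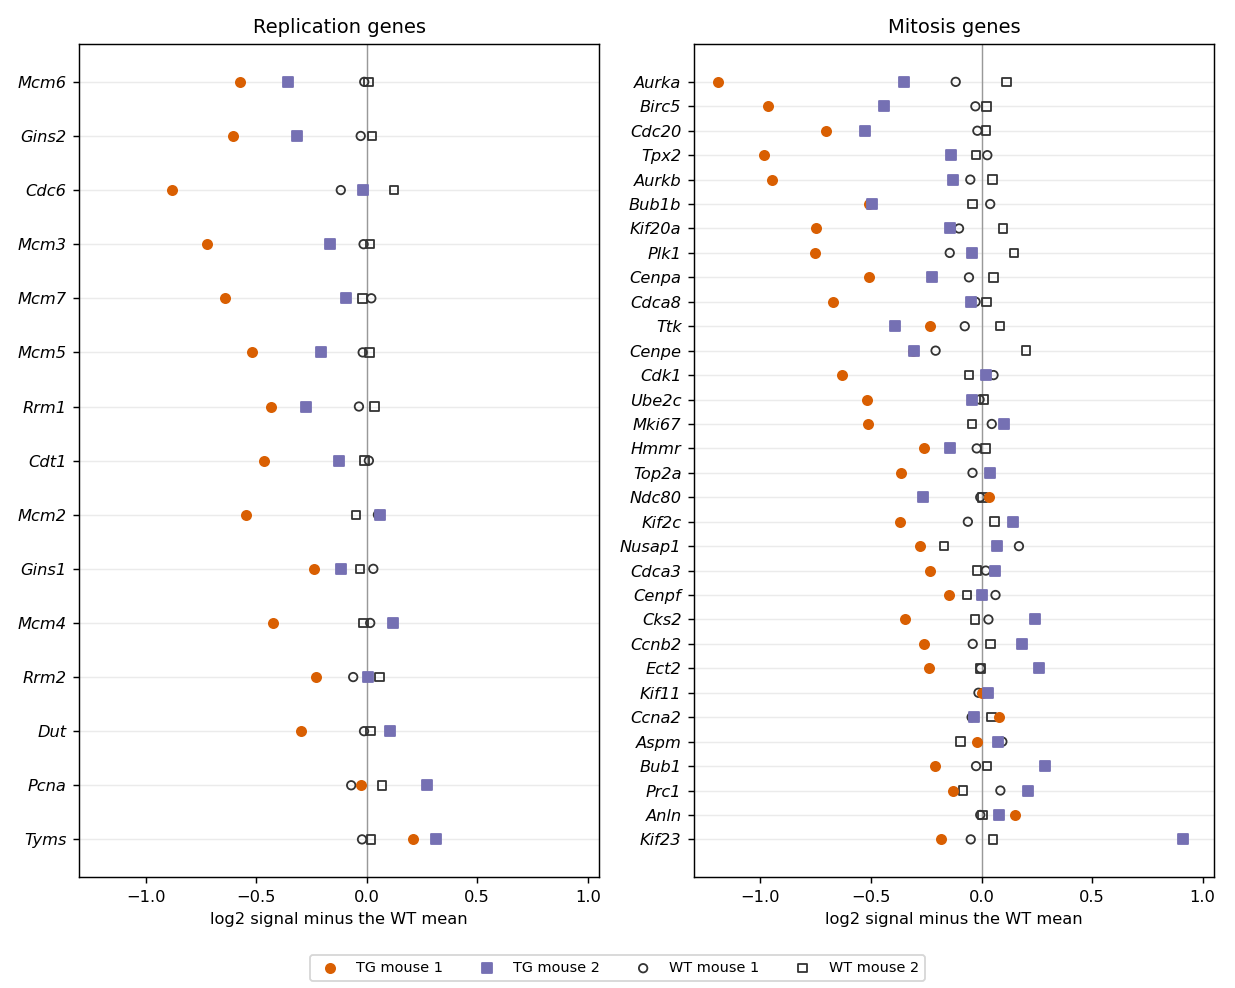
Log2 signal of each gene minus the WT mean of that gene (horizontal axis) for TG mouse 1 (filled circles), TG mouse 2 (filled squares), WT mouse 1 (open circles) and WT mouse 2 (open squares), with genes ordered by the mean TG difference. TG mouse 1 lay below both WT mice for 40 of 47 genes, and TG mouse 2 for 22.

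Among replication genes, the 6 subunits of the MCM helicase all had lower mean signals in TG arrays, with differences of -0.47 to -0.15. Mcm6 (probe set 1416251_PM_at) had signals of 7.64 and 7.85 in TG mice 1 and 2, against 8.20 and 8.22 in the WT mice. Both TG arrays were lower, by 1.38-fold on average (log2 difference -0.47, SE 0.12, limma adjusted p = 0.243). Mcm5 (1415945_PM_at) had 7.37 and 7.68 in TG arrays and 7.87 and 7.90 in WT arrays (log2 difference -0.36, SE 0.14, limma adjusted p = 0.370), and its second probe set differed by -0.55, also without overlap. Mcm3 (1426652_PM_at) had 6.45 and 7.01 in TG arrays, against 7.16 and 7.19 in WT arrays. Mcm7 (1416031_PM_s_at) had 7.46 and 8.00 in TG arrays, against 8.12 and 8.08 in WT arrays. For both, the groups did not overlap, but TG mouse 2 differed from the WT mean by -0.17 and -0.095, and the second probe set of each overlapped. Mcm2 had 7.79 and 8.39 in TG arrays and 8.38 and 8.28 in WT arrays, and Mcm4 8.18 and 8.72 against 8.62 and 8.59. On these probe sets TG mouse 1 was the lowest array and TG mouse 2 the highest, for Mcm2 only just. The second probe set of Mcm2 had 7.78 and 7.98 in TG arrays and 7.90 and 8.08 in WT arrays. On the second probe sets of Mcm3 and Mcm7, TG mouse 2 lay above the WT mean, by 0.139 and 0.135. The direction on the second TG array thus varied between subunits and between probe sets of the same subunit.

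Of the proteins that load and activate the helicase, Gins2, a GINS subunit (1428713_PM_s_at), had 5.93 and 6.22 in TG arrays, against 6.51 and 6.56 in WT arrays. Both TG values were lower (log2 difference -0.46, SE 0.14, limma adjusted p = 0.287), and its second probe set differed by -0.55 without overlap. Its partner Gins1 had 5.77 and 5.89 in TG arrays and 6.04 and 5.98 in WT arrays, a smaller difference of -0.18. Cdt1, a loader of the helicase (1424143_PM_a_at), had 9.97 and 10.31 in TG arrays, against 10.45 and 10.43 in WT arrays (log2 difference -0.30, limma adjusted p = 0.451). Cdc6, the other loader, had 4.61 and 5.47 in TG arrays and 5.37 and 5.61 in WT arrays, so that only TG mouse 1 stood apart. Pcna, the sliding clamp of the replication fork (1417947_PM_at), had 10.87 and 11.16 in TG arrays and 10.82 and 10.96 in WT arrays. The groups overlapped (log2 difference 0.12, SE 0.14, limma adjusted p = 0.726).

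Enzymes of nucleotide supply differed in direction. Rrm1, the large subunit of ribonucleotide reductase (1415878_PM_at), had 7.68 and 7.84 in TG arrays, against 8.08 and 8.15 in WT arrays (log2 difference -0.35, SE 0.11, limma adjusted p = 0.305). Its second probe set differed by 0.04 and overlapped. Rrm2, the small subunit, had 7.13 and 7.37 in TG arrays and 7.30 and 7.42 in WT arrays, whereas its second probe set was higher in both TG arrays by 0.18. Tyms, the thymidylate synthase (1424991_PM_s_at), was the replication gene that lay higher without overlap, with 6.82 and 6.93 in TG arrays, against 6.59 and 6.63 in WT arrays (log2 difference 0.26, SE 0.10, limma adjusted p = 0.371). Its other 4 probe sets were dim, at 2.70 to 3.37 in TG arrays and 2.70 to 3.42 in WT arrays, where non-specific control probe sets averaged 2.85 to 2.95 in TG arrays and 2.83 to 2.84 in WT arrays. They differed by -0.15 to 0.03. Quantile normalization made the differences of most replication genes given in full smaller, to -0.295 for Mcm6, -0.18 for Mcm5, -0.225 for Mcm3, -0.19 for Mcm7, -0.23 for Gins2, -0.16 for Cdt1 and -0.18 for Rrm1, and made those of Tyms (0.49) and Pcna (0.26) larger. Dut, which removes dUTP, had 8.44 and 8.85 in TG arrays and 8.73 and 8.76 in WT arrays, with overlap.

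Mitosis genes held the largest single differences of the 47. Cdc20, the activator of the anaphase-promoting complex (1416664_PM_at), had 6.62 and 6.80 in TG arrays, against 7.31 and 7.35 in WT arrays. Both TG values lay below both WT values by more than either group's own gap, a 1.53-fold lower mean (log2 difference -0.62, SE 0.11, limma adjusted p = 0.171). Ube2c, the ubiquitin-conjugating enzyme of the same complex, had 7.04 and 7.51 in TG arrays, against 7.55 and 7.57 in WT arrays, and Cdca3 overlapped. Bub1b, the checkpoint protein BubR1 that restrains Cdc20 (1416961_PM_at), had 5.65 and 5.67 in TG arrays, against 6.20 and 6.12 in WT arrays. Its TG values were nearly equal (mean 5.66 ± 0.011 in TG arrays and 6.16 ± 0.055 in WT arrays, SD, n = 2 each; log2 difference -0.50, SE 0.10, limma adjusted p = 0.189). Both further probe sets of Bub1b were also lower without overlap, by -0.29 and -0.25, the second of them near background. The checkpoint kinase Ttk (1449171_PM_at) had 4.20 and 4.05 in TG arrays, against 4.36 and 4.52 in WT arrays (log2 difference -0.31, limma adjusted p = 0.366). Here TG mouse 2 was the lower array. The checkpoint kinase Bub1 overlapped, with 4.30 and 4.80 in TG arrays and 4.49 and 4.54 in WT arrays.

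The chromosomal passenger complex, which corrects faulty spindle attachments, had 3 of its proteins among the 47 genes. Each of these was lower without overlap, as were 31.4% of all genes. Birc5, or survivin (1424278_PM_a_at), had 6.63 and 7.16 in TG arrays, against 7.57 and 7.62 in WT arrays. Its mean was 1.63-fold lower (log2 difference -0.70, SE 0.20, limma adjusted p = 0.271). Aurkb, the kinase of the complex, had 4.49 and 5.31 in TG arrays, against 5.39 and 5.49 in WT arrays, and its second probe set differed by -0.71 without overlap. Cdca8, or borealin, had 5.85 and 6.47 in TG arrays, against 6.49 and 6.54 in WT arrays. For Aurkb and Cdca8 most of the difference came from TG mouse 1 (-0.95 and -0.67 from the WT mean, against -0.13 and -0.05 for TG mouse 2), and the second probe set of Cdca8 overlapped. The spindle pole kinase Aurka (1424511_PM_at) gave the largest difference of the 47 representative probe sets, with 4.44 and 5.28 in TG arrays, against 5.52 and 5.75 in WT arrays (log2 difference -0.77, SE 0.30, limma adjusted p = 0.372). Its activator Tpx2 had 3.52 and 4.37 in TG arrays, against 4.53 and 4.48 in WT arrays, but its second probe set differed by -0.015. Plk1 overlapped. The SD between the TG mice was 0.59 for Aurka and 0.60 for Tpx2, against 0.16 and 0.03 between the WT mice.

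At the centromere, Cenpa, the histone variant that marks it (1450842_PM_a_at), had 7.92 and 8.21 in TG arrays, against 8.37 and 8.48 in WT arrays (log2 difference -0.37, SE 0.14, limma adjusted p = 0.365). Its second probe set differed by -0.75, also without overlap. Cenpe, a kinetochore motor, had 4.47 in both TG arrays, against 4.57 and 4.98 in WT arrays, and differed by -0.88 on its second probe set. Cenpf, also of the kinetochore, overlapped at -0.07, and of its further probe sets 1 was higher without overlap (0.29) and 1 overlapped (0.395). Ndc80, of the outer kinetochore, overlapped. Of the kinesins Kif11, Kif2c, Kif20a and Kif23, only Kif20a, which acts in cytokinesis (1449207_PM_a_at), did not overlap, with 3.95 and 4.56 in TG arrays, against 4.60 and 4.80 in WT arrays (log2 difference -0.45, limma adjusted p = 0.465). Kif11, the motor that separates spindle poles, had 4.85 and 4.88 in TG arrays and 4.84 and 4.87 in WT arrays. Kif23, of the central spindle, had 4.33 and 5.42 in TG arrays and 4.46 and 4.56 in WT arrays. Its high value in TG mouse 2 was the largest upward difference of any representative probe set on 1 array (0.91), and its second probe set did not share it (4.53 and 3.80 in TG arrays, 3.84 and 3.94 in WT arrays).

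On their representative probe sets, the proliferation markers most often used overlapped between the groups. Mki67, the antigen Ki-67, had 6.22 and 6.84 in TG arrays and 6.78 and 6.69 in WT arrays. Top2a, the topoisomerase of replicating cells, had 6.69 and 7.09 in TG arrays and 7.01 and 7.09 in WT arrays. Cdk1 had 6.14 and 6.79 in TG arrays and 6.82 and 6.71 in WT arrays. In each, TG mouse 1 was lowest and TG mouse 2 lay above the WT mean, by 0.10, 0.04 and 0.02. One further probe set of Top2a was lower without overlap (-0.60, limma adjusted p = 0.201). The cyclins Ccna2 (log2 difference 0.03) and Ccnb2 (-0.04) and the CDK-binding protein Cks2 (1417457_PM_at, -0.05, limma adjusted p = 0.938) also overlapped. The second probe set of Ccna2 was lower without overlap (6.28 and 6.43 in TG arrays, 6.66 and 6.52 in WT arrays; log2 difference -0.23). Cks2 had 8.96 and 9.55 in TG arrays and 9.34 and 9.28 in WT arrays. Of 6 spindle and cytokinesis genes, Hmmr was lower without overlap (1427541_PM_x_at, 5.31 and 5.43 in TG arrays, 5.55 and 5.59 in WT arrays; log2 difference -0.20, limma adjusted p = 0.467). Anln, at 3.77 and 3.69 in TG arrays and 3.61 and 3.62 in WT arrays, was higher by 0.11, and Nusap1, Prc1, Ect2 and Aspm overlapped. Of the mitosis genes given in full, Cdc20 (-0.40), Bub1b (-0.29), Cenpa (-0.20) and Hmmr (-0.049) were smaller by over 1.5 times after quantile normalization, and Cks2 turned sign (0.077).

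Further probe sets allowed a check of the direction within a gene for 29 of the 47 genes. Of 40 further probe sets, 27 had the sign of the representative one and 13 the other. Without overlap, 15 of the 40 were lower and 3 higher in TG arrays (37.5% and 7.5%), and over all probe sets the shares were 31.4% and 17.7%. All probe sets shared a sign in 18 of the 29 genes. Aurkb, Bub1b, Cenpa, Cenpe, Gins2 and Mcm5 were lower without overlap on every probe set. Mean signals of their further probe sets in TG and WT arrays were 3.896 and 4.445 for Mcm5, and 3.295 and 4.178 for Cenpe. They were 3.722 and 4.431 for Aurkb, 4.853 and 5.407 for Gins2, and 6.317 and 7.069 for Cenpa. Those of Bub1b were 3.006 and 3.26 on the dimmer and 5.475 and 5.766 on the brighter. Non-specific control probe sets averaged 2.83 to 2.95 over the arrays. The matching share of all genes is not given here. With all probe sets of a gene averaged, Rrm1 differed by -0.16 and Tyms by 0.009.

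**Figure D3:**
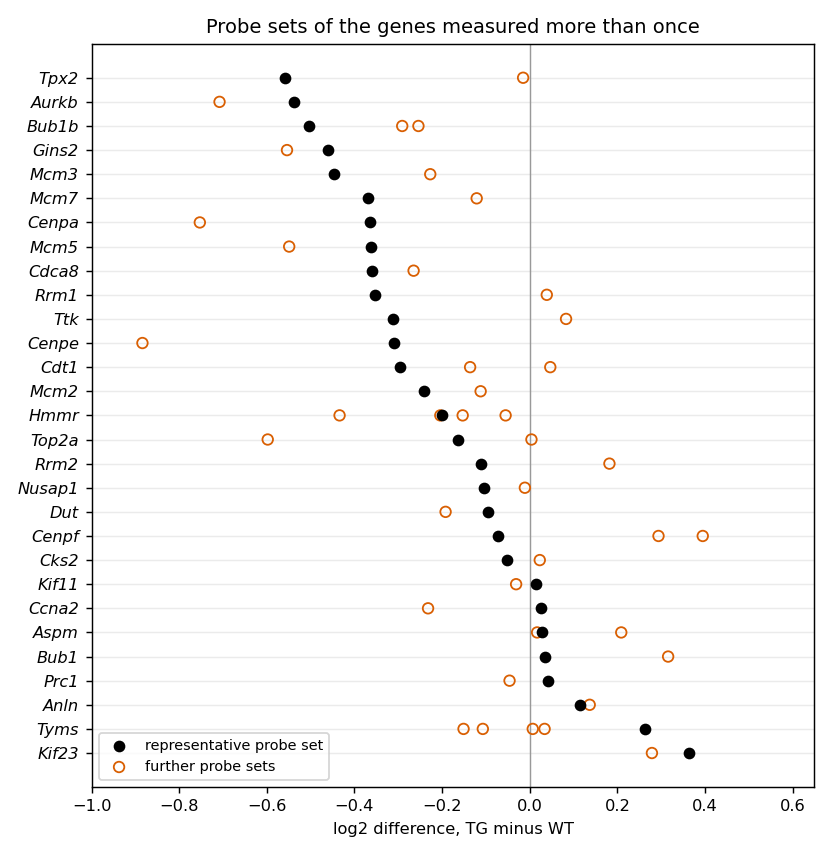
Log2 difference between TG and WT means (horizontal axis) on the representative probe set (filled) and on further probe sets (open) of the 29 genes with more than 1. Of the 40 further probe sets 27 lay on the same side of 0 as the representative one.

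Replication genes lay slightly lower than mitosis genes relative to WT. The median log2 difference was -0.30 over 15 replication genes and -0.18 over 32 mitosis genes, with 8 and 13 lower and 1 of each higher without overlap. The shares lower were 53.3% and 40.6%, against 31.4% of all genes and 37.9% of the brighter ones. Higher were 6.7% and 3.1%, against 17.7% of all genes and 15.2% of the brighter ones. On the array of TG mouse 1 the medians were -0.465 for replication and -0.329 for mitosis genes, and on that of TG mouse 2 -0.095 and -0.015. The difference between TG and WT arrays also varied with signal. Over all genes the median difference was -0.002 at signals of 4 to 5, -0.08 at 5 to 6 and -0.22 at 6 to 7. It was -0.21 at 7 to 8 and -0.13 at 9 or above. For TG mouse 1 alone these were, in the same order, -0.045, -0.19, -0.41, -0.38 and -0.26. For TG mouse 2 they were 0.03, 0.01, -0.03, -0.02 and 0.01. The median signal was 7.915 for replication genes and 5.408 for mitosis genes. The part of signal in the difference between the classes was not tested. Of the 47 members 28 lay below the median of all genes in their own range of signal, 10 of 15 replication genes and 18 of 32 mitosis genes. After quantile normalization, which gives every array the same distribution, the medians were -0.16 for replication and -0.04 for mitosis genes. On the array of TG mouse 1 alone they were then -0.164 for replication and -0.104 for mitosis genes. With all probe sets of a gene averaged, they were -0.18 and -0.16, a difference between the classes of -0.016.

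**Figure D4:**
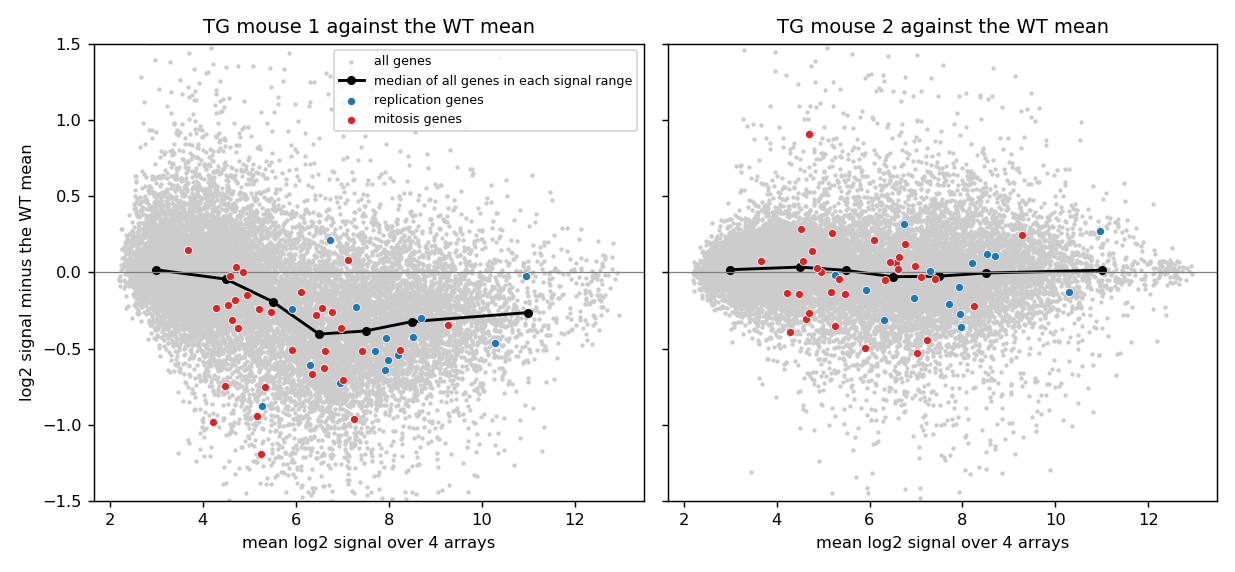
Log2 signal minus the WT mean (vertical axis) against mean log2 signal (horizontal axis) for TG mouse 1 (left) and TG mouse 2 (right). Grey points are all 17097 genes, with those outside the axis not drawn, the black line joins the median of all genes in each of the ranges of signal, and coloured points are replication and mitosis genes. In TG mouse 1 the median of all genes was -0.41 at signals of 6 to 7, where many members lie.

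Each TG array was also set alone against the WT pair. In these fits the lone TG array is assumed to vary like the WT arrays, so they describe that mouse. For TG mouse 2, 4 members were lower and 1 higher at a limma adjusted p of 0.05, against 4.86% and 5.08% of all genes and 6.69% and 6.65% of the brighter ones. The lower ones were Cdc20 (-0.53, limma adjusted p = 0.0229), Bub1b (-0.50, adjusted p = 0.0296), Birc5 (-0.44, adjusted p = 0.0342) and Mcm6 (-0.36, adjusted p = 0.0497), and the higher one was Kif23 (0.91, adjusted p = 0.0108). For TG mouse 1, 29 members were lower and none higher, against 35.7% and 9.2% of all genes and 46.8% and 7.06% of the brighter genes. The same WT arrays serve both fits. In TG mouse 1, Cdc20 differed by -0.71, Bub1b by -0.51, Birc5 by -0.96 and Mcm6 by -0.57, while Kif23 differed by -0.18. B cell markers were lower in both TG mice (median -1.06 in TG mouse 1 and -0.91 in TG mouse 2), and neutrophil markers were higher (1.72 and 2.65). Their part in these results was not tested.

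Genes of the same pathways outside the 49 were compared in the same way, and none of the 5 lists held a gene past the adjusted threshold. Of 40 other replication genes 22 were lower and 4 higher without overlap (median -0.28). By smallest p these were led by Orc4, an origin recognition subunit, which lay higher (6.56 and 6.54 in TG arrays, 5.89 and 6.09 in WT arrays; limma adjusted p = 0.195). Chaf1b, a histone chaperone at the fork (-0.52), and the polymerase subunits Pole (-0.55) and Pold1 (-0.44) followed. Of 60 other mitosis genes 35 were lower and 6 higher (median -0.25), among them Hjurp, the chaperone that deposits Cenpa (-0.82), Trip13, a checkpoint ATPase (-0.78), Cdca2 (-0.47) and Fbxo5, an inhibitor of the anaphase-promoting complex (-0.46). The shares lower, 55.0% and 58.3%, stand beside 31.4% over all genes and 37.9% of the brighter ones. Of each list 10% were higher, against 17.7% of all genes and 15.2% of the brighter ones. The median signals of the lists were 7.17 and 5.555. Of all genes 47.5% were lower at signals of 7 to 8, and 34.7% at 5 to 6.

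For the next lists too, 31.4% of all genes were lower and 17.7% higher without overlap, and 37.9% and 15.2% of the brighter ones. Among 19 regulators of the E2F, Rb, MYBL2 and FOXM1 axis 4 were lower and 2 higher (median -0.06). E2f2, an activating E2F, had 7.04 and 7.23 in TG arrays, against 7.85 and 7.97 in WT arrays (log2 difference -0.78, SE 0.12, limma adjusted p = 0.145). Both TG arrays lay below both WT arrays, whereas its dimerisation partner Tfdp1 lay higher (8.15 and 8.24 in TG arrays, 7.87 and 7.92 in WT arrays; log2 difference 0.31). Mybl2 (-0.53) and E2f8 (-0.49) were lower without overlap, with differences of -0.87 and -0.84 in TG mouse 1 and -0.18 and -0.15 in TG mouse 2. Of 13 cyclins, CDKs, CDC25 phosphatases and their opposing kinases 7 were lower and 3 higher, with Cdk6 at -0.53, Cdk2 at -0.41, Cdc25b at -0.37 and Pkmyt1 at -0.25. Of 14 CDK inhibitors and quiescence genes 4 were lower and 5 higher (median 0.11). Ccng2 (-0.50) and the CDK4 and CDK6 inhibitor Cdkn2d (-0.44) were lower, and Klf2, a factor of resting lymphocytes (0.37), and Foxo1 (0.24) higher.

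**Figure D5:**
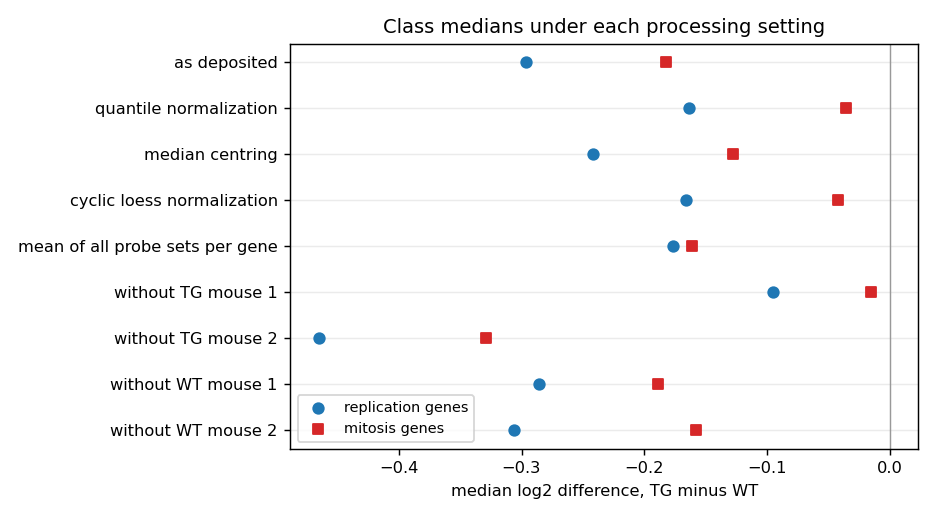
Median log2 difference between TG and WT means (horizontal axis) of replication genes (circles) and mitosis genes (squares) under each processing setting. The medians ran from -0.465 without TG mouse 2 to -0.015 without TG mouse 1.

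The order of the classes was kept under every setting in the plot of class medians, with replication genes below mitosis genes, but the sizes were not. Leaving out either WT mouse gave differences between the classes of -0.148 to -0.097, and leaving out either TG mouse gave -0.136 to -0.080. The pooled SD of the class median between mice of a group was 0.19 for replication and 0.16 for mitosis genes, against medians of -0.30 and -0.18 between the groups. That of the difference between the classes was 0.029, against a difference of -0.114. This SD leaves out shifts that both classes share on an array, and the choice of genes and probe sets. With all probe sets of a gene averaged, the difference was -0.016. Over all genes the median difference was -0.21 at signals of 7 to 8 and -0.08 at 5 to 6. The part of signal in the difference between the classes was thus not separated by this SD. Precision is limited by 2 mice per group: an exact permutation test of 2 against 2 arrays cannot reach a p of 0.05, and the limma p-values measure the spread between these mice.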

How the data were processed

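RNA of lymph node B cells from 2 TG and 2 WT mice was hybridised to Affymetrix arrays, labelled with a 3' IVT kit per the labels' protocols. The deposited table holds the authors' log2 signals of probe sets. The labels do not say how background, normalization and summary were done, and the scale was read from the values. Genes were named from the platform annotation, and all 47 members were matched by Entrez ID to RefSeq (GRCm38.p6). Probe sets that name a member beside another gene (3) were left out, as were 104 control probe sets.

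TG and WT signals were fitted with lmFit and eBayes of limma 3.58.1 under R 4.3.3, after a test on simulated data. P-values are two-sided and were adjusted by Benjamini-Hochberg across 45037 probe sets, with calls made at 0.05. The mouse numbers are not said to pair animals, and deviations from the group means were unrelated between arrays of one number (correlation 0.0145), so no replicate block was used. Alternatives were a replicate block, quantile normalization, median centring, cyclic loess (added after seeing the data), a filter keeping probe sets above the 40th percentile (a mean of 4.10), eBayes with a trend and robust priors, averaging the probe sets of each gene, and leaving out each array. Brighter genes are those kept by that filter. Of each class, the 8 members of smallest p, the 2 of highest mean signal and any that moved over 0.5 in opposite directions on the 2 TG arrays (none did) were given in full, and up to 4 genes of smallest p from each pathway list. The members, lists and tests were chosen with earlier results of these data known. Figures were drawn with matplotlib 3.10.9.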

Additional observations from a re-analysis of the deposited data

How the results depend on the processing

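No member passed the adjusted threshold under the replicate block, quantile normalization, median centring, cyclic loess normalization, the filter, the trended eBayes or the mean of all probe sets, nor without either WT mouse. The smallest adjusted p of a member in these fits was 0.0701 (cyclic loess). Leaving out 1 array gave 0 to 29 members past it, 5 without TG mouse 1 and 29 without TG mouse 2. Over all probe sets 21 passed as deposited (17 higher, 4 lower), 15 with the replicate block, 870 after quantile normalization (402 higher, 468 lower), 614 after median centring (189 higher, 425 lower), 1218 after cyclic loess (535 higher, 683 lower), 51 with the filter, and 0 to 19110 with 1 array left out: none without WT mouse 1 or WT mouse 2 (1631 and 1576 at an unadjusted p under 0.05), 4140 without TG mouse 1 and 19110 without TG mouse 2. The cause of these changes was not tested. Members higher without overlap numbered 2 as deposited, 9 after quantile normalization, 4 after median centring, 8 after cyclic loess, 1 with the filter, which tests 1 member fewer, and 3 to 16 with 1 array left out. Members lower without overlap numbered 22 to 40 with 1 array left out, which leaves 1 array in a group and makes overlap less likely. Without TG mouse 2, 61.8% of all genes were lower and 27.2% higher in this sense. Without TG mouse 1, 37.7% were lower and 43.0% higher. Such shares of all genes under quantile normalization, median centring and cyclic loess are not given here. The difference between the class medians was -0.016 as the mean of all probe sets. With 1 array left out it ran from -0.148 to -0.080, the replication median from -0.465 to -0.095 and the mitosis median from -0.329 to -0.015. Median centring and quantile normalization gave medians of all probe sets of 0.009 and 0.007, against -0.044 as deposited. Of the 18 members given in full, 11 differences were smaller and 2 larger by over 1.5 times after quantile normalization, 10 and 2 after cyclic loess, and 6 and 1 as the mean of all probe sets. Cks2 turned sign after quantile normalization (0.077), median centring (0.002) and cyclic loess (0.099), and it ran from -0.346 to 0.243 with 1 array left out. Pcna turned to -0.024 without TG mouse 2, and ranged up to 0.273. The block changed no call of a member.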
